A study of Mus musculus with 6 samples.

Results

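The 8 genes described here are 7 spliced noncoding host genes of small nucleolar RNAs (snoRNAs), namely Gas5, Snhg1, Snhg3, Snhg5, Snhg6, Snhg8 and Snhg12, together with Snora44, a snoRNA encoded inside Snhg12. They were chosen by symbol from the 24421 genes of the deposited expression table. All 8 were among the 12121 genes that reached 1 FPKM (sequenced fragments scaled to transcript length and to library size) in at least 3 libraries. Snora44 was included with its place among the genes of smallest p in the knockout against wildtype comparison already known, so the differences between the groups are given for all 8 genes as a description. They were part of the fit across the whole table, but no p is used as evidence for any of them.

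Hearts were taken from Gas2l3 -/- and wildtype C57/Bl6 mouse embryos late in gestation (E18.5), and polyadenylated RNA of 3 libraries per group was sequenced. The product of Gas2l3 links actin filaments with microtubules, and the study concerned its loss from the developing heart. The labels number the libraries within each group but do not say whether each came from its own embryo, nor which part of Gas2l3 was deleted or in which cells. Any spread given here is the spread between these libraries.

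A snoRNA host gene is transcribed as a long precursor. Its introns carry snoRNAs, which are trimmed out after splicing and guide chemical modification of ribosomal and other small RNAs: box C/D snoRNAs guide ribose methylation, box H/ACA snoRNAs guide pseudouridylation. The spliced exons of noncoding hosts such as Gas5 and Snhg1 contain only short reading frames, are read by ribosomes and are degraded by nonsense-mediated decay. Many hosts start at a C followed by a run of pyrimidines, as the messenger RNAs of ribosomal proteins do, and Gas5 takes its name from its accumulation in growth-arrested fibroblasts.

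Of the 8 genes, Snora44 is shown whole because its reads separated the groups and because it shares its locus with Snhg12. It lies at chr4:132309941-132310069 on the plus strand of GRCm38, the assembly also called mm10 (ENSMUSG00000064604.1, GENCODE M21). Capitals mark the bases that RefSeq also assigns to the snoRNA, which start 12 bases further in.
Snora44: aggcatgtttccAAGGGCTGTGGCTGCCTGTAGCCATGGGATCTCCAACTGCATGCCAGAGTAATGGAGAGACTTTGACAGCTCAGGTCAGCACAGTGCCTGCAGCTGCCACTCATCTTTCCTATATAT

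The start regions of the hosts are shown so that hosts low in 1 wildtype library (Gas5, Snhg1 and Snhg5) can be set beside hosts that were not (Snhg3, Snhg8 and Snhg12). RefSeq promoters on GRCm38.p6 were found for 6 of the 7 hosts, all but Snhg6. Each line holds 70 bases, from 45 before the start site, and capitals mark a TATA and a C with the pyrimidines that follow it.
Gas5 second start, chr1:161035121-161035190, plus strand: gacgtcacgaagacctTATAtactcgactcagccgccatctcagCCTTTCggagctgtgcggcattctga
Snhg1, chr19:8723442-8723511, plus strand: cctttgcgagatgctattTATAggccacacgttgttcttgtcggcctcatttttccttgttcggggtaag
Snhg5, chr9:88522873-88522942, minus strand: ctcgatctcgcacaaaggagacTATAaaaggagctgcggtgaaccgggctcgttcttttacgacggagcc
Snhg3, chr4:132353662-132353731, minus strand: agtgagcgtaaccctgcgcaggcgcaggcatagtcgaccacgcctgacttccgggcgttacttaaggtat
Snhg8, chr3:123508312-123508381, minus strand: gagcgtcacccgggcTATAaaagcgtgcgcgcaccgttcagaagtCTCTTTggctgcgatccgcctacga
Snhg12, chr4:132308633-132308702, plus strand: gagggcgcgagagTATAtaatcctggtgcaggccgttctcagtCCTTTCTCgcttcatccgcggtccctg

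The letters TATA, the same on both strands, were searched for from 40 to 16 bases before the start. They were found for Snhg1, Snhg5, Snhg8, Snhg12 and the second start of Gas5, that is at 5 of the 7 starts of these hosts, 27, 23, 30, 32 and 29 bases before the start in that order of genes. Of all 32851 RefSeq promoters, 5.91% held TATA in that window. A C followed by at least 5 bases that were each C or T, on the transcribed strand from 10 before to 15 after the start, was found for Snhg8, Snhg12 and the second start of Gas5, against 6078 of the 32851 promoters. Both motifs were present at those 3 starts and in 1.15% of all promoters. The motifs and windows were chosen after these promoters had been read, and a match is a description of the letters only.

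Reads recovered from the table ranged from 5514800 to 6483168 in the Gas2l3 -/- libraries and from 3414257 to 7732674 in the wildtype libraries. Gas2l3 itself was at 4.03, 2.99 and 3.06 FPKM in libraries 1, 2 and 3 labelled Gas2l3 -/-, against 10.3, 4.12 and 2.48 FPKM in those labelled wildtype (log2 difference −0.47, SE 0.44, limma adjusted p = 0.966). Wildtype library 3 lay below all knockout-labelled libraries, so the groups overlapped as deposited. With each library's trends on GC content and length removed, the groups did not overlap for Gas2l3. Its log2 levels were then 1.78, 1.95 and 1.82 in Gas2l3 -/- libraries, against 2.96, 2.38 and 2.14 in wildtype libraries. Every direction below refers to the libraries as labelled. Wildtype library 3 also stood apart over all tested genes: its mean correlation with the rest was 0.899, where those of the other libraries were 0.935 to 0.957. Its values were higher in genes of higher GC content (r = 0.72 across 11709 genes, which are not independent replicates), while both libraries numbered 1 went the other way (−0.50 in Gas2l3 -/- and −0.49 in wildtype). Heart markers were high throughout: 10 cardiomyocyte genes summed to between 30805 and 35502 FPKM in Gas2l3 -/- and between 35081 and 52600 FPKM in wildtype libraries, the highest being wildtype library 3. Skeletal muscle markers summed to between 1252 and 1351 FPKM in Gas2l3 -/- and between 1327 and 3593 FPKM in wildtype libraries, again highest in wildtype library 3. Of these 8 markers 5 were under 1 FPKM in every library, among them Myod1 and Pax7 at 0, so the sum rests on few genes. Erythroid markers summed to 30.1 to 126 FPKM in Gas2l3 -/- and 29.0 to 50.7 FPKM in wildtype libraries, and liver markers to 0.649 to 13.9 and 1.23 to 11.4 FPKM in Gas2l3 -/- and wildtype libraries. Each marker of lung and thymus was under 1 FPKM in every library, with Sftpa1, Nkx2-1, Scgb1a1, Cd3e and Cd3g at 0. In whole hearts, fewer cells of a type and less RNA per cell cannot be told apart.

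The 3 box C/D hosts Gas5, Snhg1 and Snhg5 had higher means in the Gas2l3 -/- hearts, and in each wildtype library 3 was the lowest of the 6. Gas5 (chr1:161034422-161038539, plus strand, ENSMUSG00000053332.13) holds 9 symbols annotated as snoRNAs and is known in human cells as a transcript that binds the glucocorticoid receptor. It was at 41.7, 72.2 and 41.4 FPKM in Gas2l3 -/- libraries 1, 2 and 3, against 38.2, 65.8 and 10.4 FPKM in wildtype libraries 1, 2 and 3. Libraries 1 and 2 of the groups were thus close to each other, wildtype library 3 stood far below the other 5, and the groups overlapped. The means were 51.8 ± 17.7 FPKM in Gas2l3 -/- and 38.1 ± 27.7 FPKM in wildtype hearts (SD, n = 3 each), a log2 difference of 0.73 (SE 0.61).

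Snhg1 (chr19:8723475-8726443, plus strand, ENSMUSG00000108414.1) holds 8 symbols annotated as snoRNAs, among them Snord22. It was at 63.2, 125 and 77.4 FPKM in Gas2l3 -/- libraries 1, 2 and 3, against 56.5, 160 and 21.8 FPKM in the wildtype libraries. The wildtype libraries held both the highest and the lowest value of the 6. Its means of 88.7 ± 32.6 FPKM in Gas2l3 -/- and 79.3 ± 71.8 FPKM in wildtype hearts (SD, n = 3 each) gave a log2 difference of 0.54 (SE 0.65).

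Snhg5 (chr9:88521050-88522929, minus strand, ENSMUSG00000097195.9) carries Snord50a and Snord50b. It was at 16.4, 30.7 and 18.51 FPKM in Gas2l3 -/- hearts, against 18.0, 22.0 and 6.02 FPKM in wildtype hearts, with means of 21.9 ± 7.74 and 15.3 ± 8.33 FPKM in that order of groups (SD, n = 3 each). As for Gas5, wildtype library 3 was the lowest of the 6 and the groups overlapped. The log2 difference was 0.63 (SE 0.48).

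In the other C/D host, Snhg6 (chr1:9941959-9944118, minus strand, ENSMUSG00000098234.7), which carries Snord87, the groups had nearly the same mean. It was at 52.4, 112 and 53.0 FPKM in Gas2l3 -/- hearts, against 48.8, 128 and 49.5 FPKM in wildtype hearts. The values of library 1 and library 3 were alike in both groups and both libraries numbered 2 were above them. The log2 difference was 0.0027 (SE 0.47).

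The H/ACA hosts Snhg3 and Snhg8 had lower means in the Gas2l3 -/- hearts. Snhg3 (chr4:132348014-132353686, minus strand, ENSMUSG00000085241.7) carries Snora73a and Snora73b, counterparts of a yeast snoRNA needed for processing of ribosomal RNA. It was at 30.9, 72.0 and 27.9 FPKM in Gas2l3 -/- hearts, against 33.7, 69.7 and 56.1 FPKM in wildtype hearts. Libraries 1 and 2 were again alike between the groups, library 3 was higher in wildtype, and the groups overlapped. The means were 43.6 ± 24.7 and 53.2 ± 18.2 FPKM in Gas2l3 -/- and wildtype hearts (SD, n = 3 each), a log2 difference of −0.36 (SE 0.43).

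Snhg8 (chr3:123507552-123508404, minus strand, ENSMUSG00000104960.1), the host of Snora24, was at 19.7, 55.7 and 26.1 FPKM in Gas2l3 -/- hearts, against 17.6, 62.8 and 56.9 FPKM in wildtype hearts. Here wildtype library 3 was near the top of the range, the reverse of its place in Gas5, Snhg1 and Snhg5. The means of 33.8 ± 19.2 FPKM in Gas2l3 -/- and 45.8 ± 24.6 FPKM in wildtype hearts (SD, n = 3 each) gave a log2 difference of −0.38 (SE 0.55).

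Snhg12 (chr4:132308623-132311024, plus strand, ENSMUSG00000086290.9) hosts Snord99 and the H/ACA snoRNAs Snora16a, Snora44 and Snora61. It was at 19.5, 26.8 and 22.6 FPKM in Gas2l3 -/- hearts, against 15.9, 28.6 and 22.3 FPKM in wildtype hearts. It varied least of the 7 hosts in the ratio of its highest to its lowest library, and its Gas2l3 -/- values lay within the range of its wildtype values. The means were 22.9 ± 3.66 FPKM in Gas2l3 -/- and 22.3 ± 6.32 FPKM in wildtype hearts (SD, n = 3 each), a log2 difference of 0.070 (SE 0.29).

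Snora44, inside Snhg12, did separate the groups. It was at 7.97, 14.4 and 16.2 FPKM in Gas2l3 -/- hearts, against 2.29, 3.39 and 1.41 FPKM in wildtype hearts. Every Gas2l3 -/- library was above every wildtype library. These values rest on few reads: 6, 9 and 13 in Gas2l3 -/- libraries 1, 2 and 3, against 1, 3 and 1 in the wildtype libraries. Exact 95% Poisson intervals, which cover counting error only, ran from 2.20 to 13.1, 4.12 to 17.1 and 6.92 to 22.2 reads in Gas2l3 -/-, against 0.0253 to 5.57, 0.619 to 8.77 and 0.0253 to 5.57 reads in wildtype libraries. The intervals of single libraries thus overlap between the groups, except between Gas2l3 -/- library 3 and wildtype libraries 1 and 3. They are in reads not scaled to library size. Wildtype library 1 held 3414257 reads in all, against 6483168 in Gas2l3 -/- library 3. A gap in reads between these libraries therefore need not be a gap in level. Summed over 3 libraries there were 28 reads in Gas2l3 -/- and 5 in wildtype hearts. The means were 12.8 ± 4.30 FPKM in Gas2l3 -/- and 2.36 ± 0.992 FPKM in wildtype hearts (SD, n = 3 each), a log2 difference of 2.22 (SE 0.36) on the log2(FPKM + 0.5) scale.

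**Figure D1:**
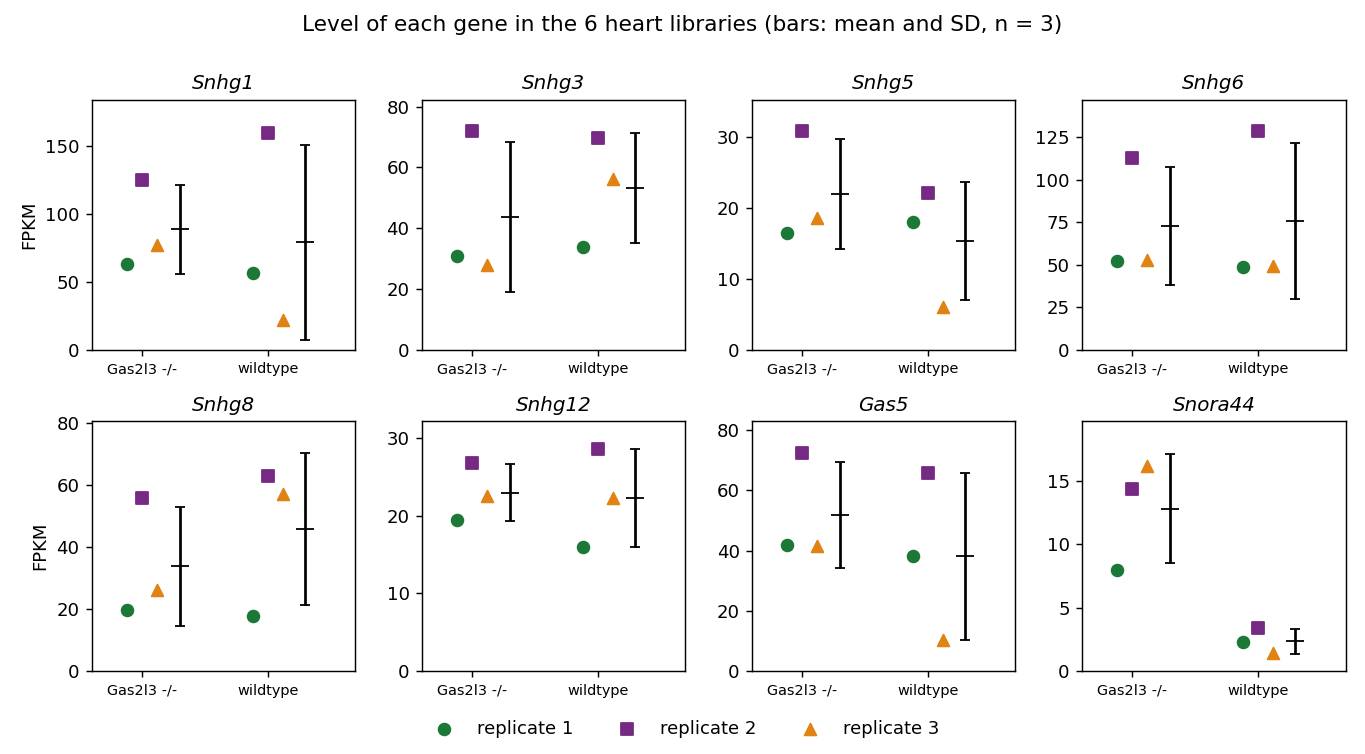
FPKM (y axis, from 0) of each of the 8 genes in the 3 Gas2l3 -/- and 3 wildtype libraries (x axis), with the replicate number as symbol and the mean and SD (n = 3) beside each group. Snora44 is the only panel with separate groups (7.97 to 16.2 FPKM in Gas2l3 -/-, 1.41 to 3.39 FPKM in wildtype), and library 2 is the highest of its group in every panel but the Gas2l3 -/- side of Snora44.

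Of the 8 genes, 0 were called at a limma adjusted p under 0.05 over the whole table, where 0% of the 12121 genes were called in either direction, 394 (3.25%) had an unadjusted p under 0.05, and voom on the recovered reads called 0 with 375 at an unadjusted p under 0.05. The authors' deposited table called 7 genes higher (0.0572% of 12243) and 2 lower (0.0163%), none of them among the 8. It gave no adjusted p for Snora44 or Snhg6, so neither could have been called there. Log2 fold changes in the authors' deposited table were 0.25 for Gas5, 0.083 for Snhg1, 0.32 for Snhg5, −0.040 for Snhg6, −0.19 for Snhg3, −0.26 for Snhg8, 0.021 for Snhg12 and 0.70 for Snora44, which it marks as low. Groups did not overlap, with Gas2l3 -/- higher, for 1 of the 8 genes, against 5.02% of all tested genes, and for 0 with Gas2l3 -/- lower, against 4.74% (9.76% in both directions together). Mean FPKM was higher in Gas2l3 -/- hearts for 5 of the 8 genes and lower for 3. The log2 difference, taken between means of log2 values, was above 0 for 6 and below 0 for 2, since Snhg6 lay just above 0 on that scale, and its median was 0.31. Over the 7 hosts without Snora44 the median was 0.070, with 5 above 0 and 2 below. Over all tested genes 5937 were above 0 and 6184 below, with a median of −0.0089.

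By level, Snhg1 led and Snora44 came last in both groups. In Gas2l3 -/- hearts the order by mean FPKM was Snhg1, Snhg6, Gas5, Snhg3, Snhg8, Snhg12, Snhg5 and Snora44. In each Gas2l3 -/- library every one of the first 5 genes was above the next, though the ranges of neighbours overlapped; Snhg12 was above Snhg5 in 2 of 3 libraries. The wildtype order was Snhg1, Snhg6, Snhg3, Snhg8, Gas5, Snhg12, Snhg5 and Snora44. There only Snhg5 and Snora44 kept their order in 3 of 3 libraries and had separate ranges, while Snhg8 was above Gas5 in 1 of 3.

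Library 2 was the highest of its group in both groups for all 7 hosts, against 14.4% of all tested genes. Snora44 was the exception among the 8 genes, with its highest value in Gas2l3 -/- library 3. In Gas2l3 -/- hearts, library 2 exceeded the mean of libraries 1 and 3 by a ratio of 2.45 for Snhg3, 2.43 for Snhg8, 2.13 for Snhg6, 1.79 for Snhg1, 1.76 for Snhg5, 1.74 for Gas5 and 1.27 for Snhg12. In wildtype hearts, library 2 exceeded library 1 by a ratio of 3.57 for Snhg8, 2.83 for Snhg1, 2.63 for Snhg6, 2.07 for Snhg3, 1.79 for Snhg12, 1.72 for Gas5 and 1.23 for Snhg5. The same pattern was present in 32 of 77 cytosolic ribosomal protein genes (41.6%), 13 of 34 protein-coding snoRNA hosts (38.2%), 2 of 9 other noncoding hosts (22.2%) and 2 of 18 snoRNP genes (11.1%). These lists share genes: many protein-coding hosts are also among the ribosomal protein genes, and some are also among the snoRNP genes. Their counts are therefore not separate observations. Both libraries numbered 2 also had higher values in short genes (r with log length −0.41 in Gas2l3 -/- and −0.31 in wildtype), and all hosts but Gas5 are counted over short spliced transcripts, from 403 bases for Snhg6 to 1005 bases for Snhg5, against 2550 bases for Gas5. The part of length in the library 2 values was not tested beyond the removal of trends.

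With each library's trends on GC content and length removed, library 2 was the highest of both groups for 2 of the 7 hosts, Snhg6 and Gas5, against 17.6% of all genes with a GC value. Snhg6 then stood at log2 levels of 5.89, 6.20 and 5.99 in Gas2l3 -/- hearts, against 5.90, 6.61 and 5.97 in wildtype hearts. Gas5 stood at 5.15, 6.07 and 5.39 in Gas2l3 -/- hearts, against 5.0, 6.01 and 4.13 in wildtype hearts. The library 2 excess was smaller for Snhg6 than as deposited and was kept for Gas5. The other 5 hosts no longer had library 2 highest in both groups, though each kept it highest in 1 group. Snhg3, Snhg5 and Snhg8 still had it highest in Gas2l3 -/- hearts, at 5.59, 4.55 and 5.34. In wildtype hearts Snhg3 (5.32, 5.74 and 6.20) and Snhg8 (4.38, 5.71 and 6.13) were highest in library 3. Snhg5 was at 4.30, 4.28 and 3.11 there. Snhg1 had library 2 highest in wildtype hearts only (6.03, 6.93 and 4.87). Snhg12 was at 4.68, 4.27 and 4.68 in Gas2l3 -/- hearts, against 4.49, 4.53 and 4.38 in wildtype hearts.

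Taking the 7 hosts together, they took 233, 402 and 244 RPM (reads scaled to the library total) in Gas2l3 -/- libraries 1, 2 and 3, against 220, 414 and 115 in the wildtype libraries. Libraries 1 and 2 of the groups again matched, and wildtype library 3 had the smallest share. Gas5 supplied 49.7%, 44.9% and 46.4% of the host reads in Gas2l3 -/- hearts, against 48.9%, 40.6% and 18.3% in wildtype hearts. Per length the sum of the hosts in wildtype library 3, 223 FPKM, was close to the 229 FPKM of wildtype library 1, but its make-up differed: Snhg1 gave 9.75% of it and Snhg8 25.5%. In the other 5 libraries Snhg1 gave 25.9%, 25.3% and 29.0% in Gas2l3 -/- hearts, and 24.7% and 29.7% in wildtype libraries 1 and 2. Snhg8 gave 8.07%, 11.2% and 9.79% in Gas2l3 -/- hearts, and 7.71% and 11.7% in those wildtype libraries.

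Wildtype library 3 split the hosts. It was the lowest of the 6 libraries by a ratio of at least 2 for 3 of the 8 genes, against 6.87% of all tested genes: Gas5 (the next library was higher by a ratio of 3.68), Snhg5 (2.73) and Snhg1 (2.59). It was the highest of the 6 for none of the 8, against 37.5% of all tested genes. Relative to the mean of wildtype libraries 1 and 2 it held 0.200 of Gas5, 0.201 of Snhg1, 0.301 of Snhg5 and 0.559 of Snhg6, but 1.0 of Snhg12, 1.09 of Snhg3 and 1.42 of Snhg8. These genes range in GC content from 40.2% (Snhg1) and 41.2% (Snhg3) over 42.3% (Gas5), 43.2% (Snhg6), 45.1% (Snhg5) and 45.7% (Snhg8) to 49.8% (Snhg12). With GC and length trends removed, Gas5, Snhg1 and Snhg5 were still lowest in wildtype library 3, at log2 levels of 4.13, 4.87 and 3.11. Snhg3 and Snhg8, at 6.20 and 6.13, were then highest of the 6 there.

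**Figure D2:**
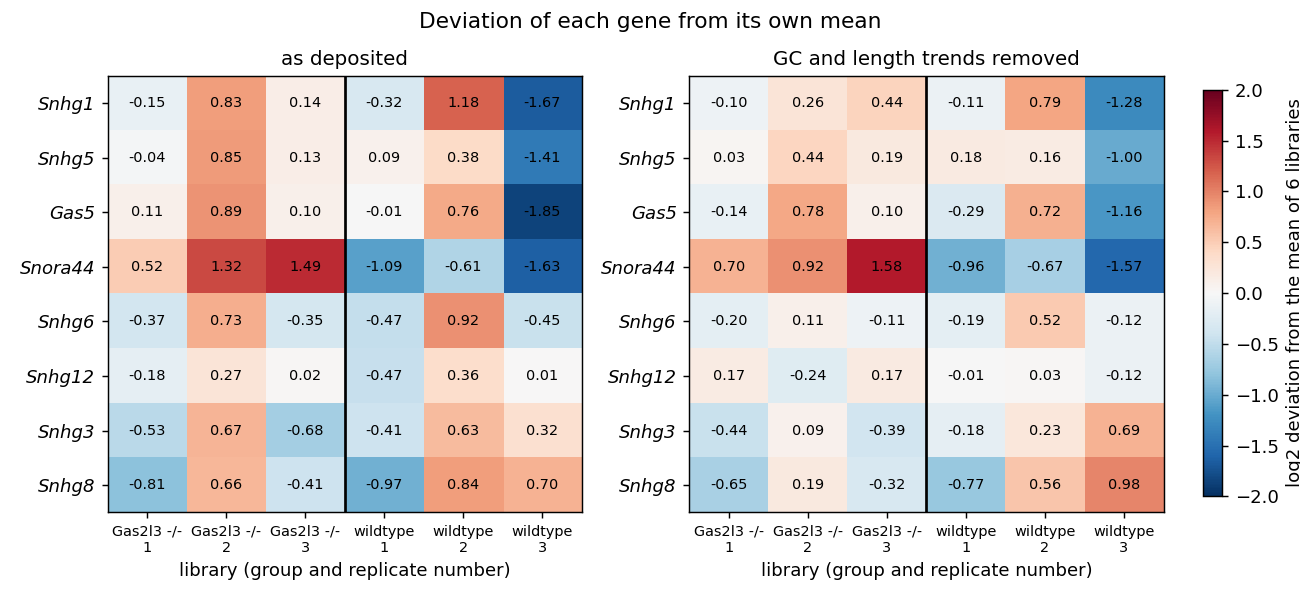
Log2 deviation of each gene from its own mean over the 6 libraries (color and number), as deposited on the left and with GC and length trends removed on the right, Gas2l3 -/- libraries left of wildtype. Gas5, Snhg1 and Snhg5 are low in wildtype library 3 on both sides, while Snhg3 and Snhg8 are high there, at log2 levels of 6.20 and 6.13 once trends are removed.

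The differences within libraries of the same number put this split into the comparison of the groups. For Gas5, Gas2l3 -/- minus wildtype came to 0.12, 0.13 and 1.94 on the log2 scale in pairs 1, 2 and 3. Snhg1 gave 0.16, −0.35 and 1.81, and Snhg5 gave −0.13, 0.47 and 1.54. In these 3 hosts pair 3 supplied most of the difference, and pairs 1 and 2 lay near 0 or on either side of it.

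Snhg3 differed by −0.12, 0.046 and −0.995 in pairs 1, 2 and 3, and Snhg8 by 0.15, −0.17 and −1.11. Pair 3 was again the largest, in the opposite direction. Snhg6 (0.10, −0.19 and 0.097) and Snhg12 (0.28, −0.091 and 0.016) lay close to 0 in all pairs. Snora44 differed in 1 direction in each pair, at 1.60, 1.93 and 3.13.

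Removing the trends left the split of pair 3 in place, at 1.25 for Gas5, 1.72 for Snhg1, 1.19 for Snhg5, −1.08 for Snhg3 and −1.30 for Snhg8. Snora44 was then at 1.66, 1.59 and 3.15 in pairs 1, 2 and 3. With the replicate number as a block the standard errors of the hosts became smaller, from 0.24 for Snhg12 to 0.43 for Snhg1, and that of Snora44 was 0.32. The block was taken up because like-numbered libraries correlated in these same data, so the smaller errors are no separate evidence for it. Without wildtype library 3 the log2 differences were −0.0057 for Gas5, −0.16 for Snhg1, 0.081 for Snhg5, −0.29 for Snhg3, −0.12 for Snhg8 and 1.96 for Snora44.

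**Figure D3:**
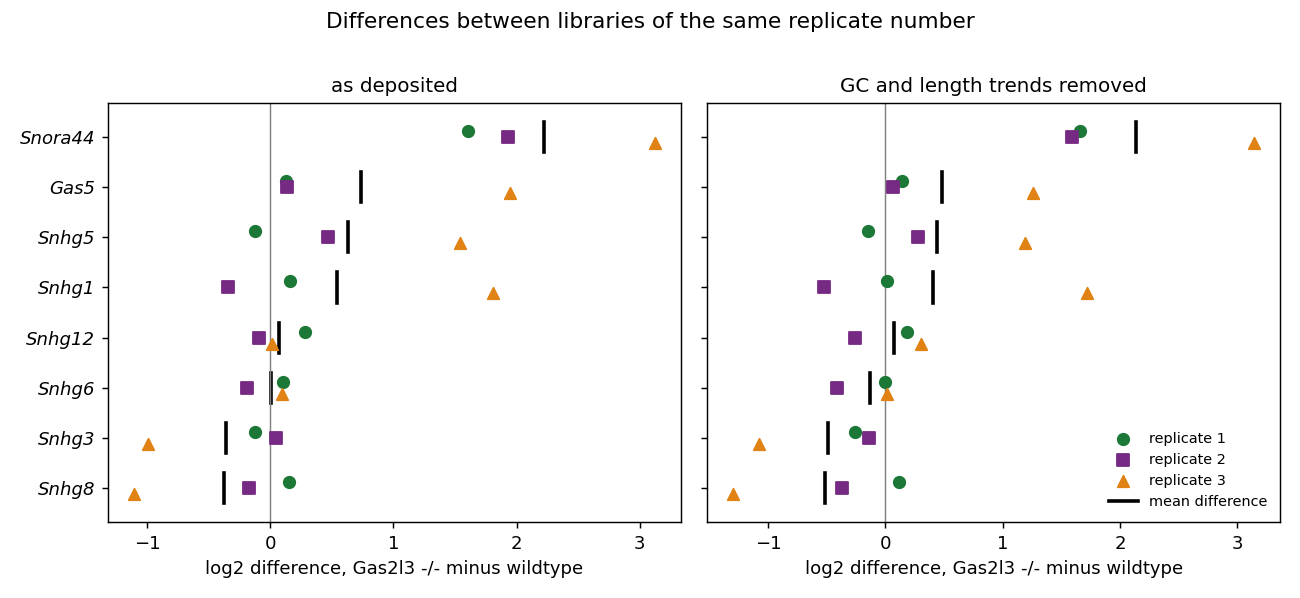
Log2 difference, Gas2l3 -/- minus wildtype, within each replicate number (symbols) and its mean (bar) for the 8 genes, as deposited on the left and with GC and length trends removed on the right. Snora44 lies above 0 in all 3 pairs (1.60, 1.93 and 3.13 as deposited), Gas5, Snhg1 and Snhg5 lie far above 0 in pair 3 only, and Snhg3 and Snhg8 lie far below 0 in pair 3 only.

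Snora44 and Snhg12 share a locus, so their reads were set against each other within each library. Of 10 annotated Snhg12 transcripts 9 span Snora44, and 2 have an exon over it, so retained or alternative exons of the host can place reads on the snoRNA. How the authors' counting divided reads between them is not given. Snora44 took 7.32% (95% exact binomial interval 2.73 to 15.2) of 82 reads on either gene in Gas2l3 -/- library 1, 9.38% (4.38 to 17.1) of 96 in library 2 and 12.1% (6.63 to 19.9) of 107 in library 3. In wildtype libraries it took 2.70% (0.0684 to 14.2) of 37 reads, 2.24% (0.464 to 6.40) of 134 and 1.20% (0.0305 to 6.53) of 83 in libraries 1, 2 and 3. The share was higher in each Gas2l3 -/- library than in any wildtype library. Snora44 was chosen with its place in this comparison known, and Snhg12 had a log2 difference of only 0.070. The share therefore restates the same Snora44 reads and is no separate evidence. The interval of Gas2l3 -/- library 3 lay above those of wildtype libraries 2 and 3, and the remaining intervals overlapped between the groups.

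**Figure D4:**
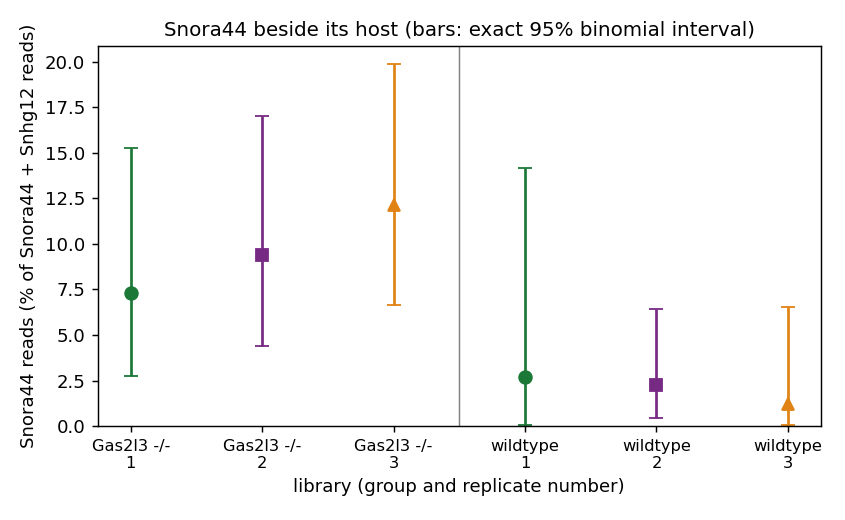
Share of Snora44 in the reads on Snora44 and Snhg12 together (y axis, percent, from 0) in the 3 Gas2l3 -/- and 3 wildtype libraries (x axis), with exact 95% binomial intervals for counting error. The points are at 7.32% to 12.1% in Gas2l3 -/- and at 1.20% to 2.70% in wildtype libraries, with intervals that overlap between the groups except for Gas2l3 -/- library 3 against wildtype libraries 2 and 3.

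Mature snoRNAs are short and carry no poly(A) tail, and the libraries were made from poly(A) RNA, so values of snoRNA genes here may come from precursors or host transcripts as well as from snoRNAs. The annotation places 27 snoRNA symbols inside the 7 hosts. Of them 8 are in the table and 7 had a read in any library. The other snoRNAs of Snhg12 overlapped between the groups. Snora16a had 6, 9 and 4 reads in Gas2l3 -/- libraries, against 3, 7 and 1 in wildtype libraries. Snora61 had 3, 4 and 8 reads in Gas2l3 -/-, against 0, 3 and 5 in wildtype libraries. Snord99 had 6, 6 and 0 reads in Gas2l3 -/-, against 5, 8 and 2 in wildtype libraries. Log2 differences were 0.83 (SE 0.58) for Snora16a, 1.79 (SE 1.05) for Snora61 and −1.37 (SE 1.28) for Snord99. Within pairs 1, 2 and 3, Snora16a was higher in Gas2l3 -/- each time, by 0.20, 0.82 and 1.48, and so was Snora61, with 3 reads against 0 in pair 1 and by 0.86 and 0.48 in pairs 2 and 3.

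Among snoRNAs of the C/D hosts, Snord47 of Gas5 had 2, 9 and 6 reads in Gas2l3 -/- libraries, against 1, 2 and 0 in wildtype libraries. Its FPKM did not overlap, though narrowly: 4.82, 26.0 and 13.5 in Gas2l3 -/-, against 4.15, 4.10 and 0 in wildtype libraries. Snord22 of Snhg1, a snoRNA known from frog oocytes to be needed for processing of ribosomal RNA, had 8, 15 and 19 reads in Gas2l3 -/- libraries, against 6, 15 and 3 in wildtype libraries. Its lowest value was in wildtype library 3, as for its host. Snord87 of Snhg6 had 5 reads in all Gas2l3 -/- libraries together and 1 in all wildtype libraries, and Snora24 of Snhg8 had 0 in each.

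By symbol alone (Snora, Snord or Scarna followed by a digit), 119 genes of the table were taken as snoRNAs or their Cajal body relatives, and 66 were tested. Any snoRNA gene with another kind of symbol is left out. Of the 65 other than Snora44, log2 differences were above 0 for 45 and below 0 for 20, with a median of 0.26 against −0.0089 for all tested genes. These values rest on few reads. All 119 genes without Snora44 together had 256, 338 and 334 reads in Gas2l3 -/- libraries, against 183, 335 and 307 in wildtype libraries. Groups did not overlap for 6 of the 65 with Gas2l3 -/- higher, against 5.02% of all tested genes, and for 2 with it lower, against 4.74%, and limma called 0 of the 65. Reads on all such genes came to 43.9, 62.9 and 53.5 RPM in Gas2l3 -/- libraries, against 53.9, 44.4 and 39.8 in wildtype libraries, so wildtype libraries 1 and 2 lay within the range of the Gas2l3 -/- libraries and wildtype library 3 below it.

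Some hosts overlap or adjoin a protein-coding gene. Reads over bases shared by genes of the same strand cannot be told apart. Where counting ignores strand, this also holds for overlapping genes of opposite strands. Snhg3 overlaps Rcc1, the gene of the exchange factor of the Ran GTPase, on the same strand. Rcc1 was at 12.4, 16.5 and 15.3 FPKM in Gas2l3 -/- hearts, against 11.6, 15.96 and 21.3 FPKM in wildtype hearts. The library 2 excess of Snhg3 was thus not seen at that size in Rcc1, while wildtype library 3 was high in Rcc1 (log2 difference −0.11, SE 0.29).

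Trnau1ap, a selenocysteine tRNA-associated protein gene 739 bases from Snhg12, was at 40.8, 74.3 and 45.4 FPKM in Gas2l3 -/- hearts, against 37.7, 82.9 and 129 FPKM in wildtype hearts. It was highest in wildtype library 3, where Snhg12 was not. Slc3a2, an amino acid transporter subunit gene 106 bases from Snhg1 on the opposite strand, was likewise highest in wildtype library 3 (23.7 FPKM), where Snhg1 was lowest. Among further tested neighbours within 5000 bases, log2 differences were −0.40 for Phactr4, −0.057 for Prss12 and 0.18 for Zbtb37, which overlaps Gas5 on the other strand. Mcmdc2, which overlaps Snhg6 on the other strand, had 0 to 2 reads per library.

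The genes whose log2 FPKM followed the mean standardised profile of the 8 genes most closely over the 6 libraries were H3f3b (Pearson r = 0.998), Nudt19 (0.998), Rpl23a (0.998), Timm8b (0.996) and Surf2 (0.994). Rpl23a, a ribosomal protein gene, was at 410, 917 and 474 FPKM in Gas2l3 -/- hearts, against 342, 779 and 328 FPKM in wildtype hearts, so library 2 was highest in both groups. An r above 0.9 was reached by 311 of the tested genes (2.57%). Of the 8 genes themselves, Snhg6 followed the profile most closely (0.953), and Snhg3 (0.636), Snhg8 (0.576) and Snora44 (0.506) least. All these points share the same 6 libraries with their trends on length and GC content.

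Of 14 other noncoding snoRNA hosts looked for, 10 were in the table and 9 were tested, 5 with a log2 difference above 0 and 4 below. The median was 0.017, or −0.080 with quantile normalization, and limma called 0 of them. With GC and length trends removed the median was −0.23, but over fewer genes. Snhg4 and Snhg7, at 0.58 and 0.017 as deposited, had no GC value and were left out of it. Rian, an imprinted noncoding RNA that hosts many C/D snoRNAs, was at 36.6, 48.4 and 39.6 FPKM in Gas2l3 -/- hearts, against 30.9, 21.1 and 4.41 FPKM in wildtype hearts. Its groups did not overlap, and as for Gas5 the lowest value was in wildtype library 3 (log2 difference 1.48, SE 0.61, limma adjusted p = 0.966). Snhg4 was also lowest there, at 5.91, 10.2 and 8.17 FPKM in Gas2l3 -/- hearts, against 7.41, 9.60 and 1.71 FPKM in wildtype hearts. In FPKM as deposited Snhg20 was highest there, at 22.9, 65.9 and 30.1 FPKM in Gas2l3 -/- hearts, against 34.7, 53.0 and 85.0 FPKM in wildtype hearts. With trends removed its log2 level in wildtype library 3, 5.38, was below those of wildtype libraries 1 (5.95) and 2 (5.46).

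Among 34 protein-coding snoRNA hosts, log2 differences were above 0 for 23 and below 0 for 11 (median 0.16), and limma called 0. The ribosomal protein genes among them, such as Rpl5, are also in the list of cytosolic ribosomal protein genes below. The translation factor genes Eif4a2 and Eif4a1 were at 0.81 (SE 0.51) and 0.54 (SE 0.36) and the ribosomal protein gene Rpl5 at 0.65 (SE 0.43), each with a limma adjusted p of 0.966. Eif4a2 was at 86.3, 95.8 and 70.1 FPKM in Gas2l3 -/- hearts, against 90.4, 58.7 and 19.7 FPKM in wildtype hearts, and so was also lowest in wildtype library 3. Of 77 cytosolic ribosomal protein genes, whose messenger RNAs are known for a pyrimidine start, 33 were above 0 and 44 below (median −0.086, but 0.093 with a common total, 0.072 with quantile normalization and 0.039 with trends removed), and limma called 0. With 1 library left out that median ran between −0.43 without wildtype library 1 and 0.11 without wildtype library 3. Rpl7 was at 0.89 (SE 0.61) and Rps4x at 0.78 (SE 0.53). By pairs the ribosomal median was 0.27, 0.15 and −0.73 in pairs 1, 2 and 3, and that of the 7 hosts without Snora44 was 0.12, −0.091 and 0.097.

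Genes that make snoRNA particles or degrade host transcripts had log2 differences below 0 more often than above, and limma called 0 of them. Of 18 snoRNP proteins and assembly factors, 11 were below 0 and 7 above (median −0.12, or 0.033 with a common total), among them the assembly factors Pih1d1 at −0.77 (SE 0.39), Ruvbl2 at −0.49 (SE 0.29) and Naf1 at −0.38 (SE 0.23). Of 16 nonsense-mediated decay factors, 13 were below 0 and 3 above (median −0.18), with Smg9 at −0.55 (SE 0.29), the exon junction helicase Eif4a3 at −0.37 (SE 0.30) and Upf2 at −0.33 (SE 0.35). Groups were apart for 4 of the 18 and 2 of the 16, all lower in Gas2l3 -/-, against 4.74% of all tested genes. Of 20 mitosis genes, set beside these because Gas5 is named for growth arrest, 19 were below 0 (median −0.63), with Aurka at −0.86 (SE 0.24), Cenpf at −0.89 (SE 0.27) and Cdc20 at −0.98 (SE 0.31), limma adjusted p = 0.966 each. Groups did not overlap for 11 of these 20, all lower, and they overlapped for Gas5. In the same comparison 10 of 10 cardiomyocyte markers were below 0 (median −0.45) and 6 of 8 fibroblast markers above 0 (median 0.35), and their part in these lists was not tested. Whether any of these lists moves with the hosts was not tested either.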

How the data were processed

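Polyadenylated RNA was purified with a DNase digest and per the labels' protocols, made into libraries with 13 PCR cycles and the NEBNext Ultra kit. The authors deposited FPKM per gene and library, together with a table of their own comparison whose log2 fold changes and p-values are quoted as the authors' deposited table. The authors used DESeq2 and FastQC and the mm10 build, per the submitters' processing notes, which give no versions. Neither aligner nor counter, annotation or use of strand is given in the sources used here.

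Multiplying FPKM by the ratio of mean normalized count to mean FPKM gave normalized counts. Dividing these, in each library, by a step fitted to its low values gave whole reads for all values above 0 (tolerance 0.01). The 8 genes and the comparison lists were chosen with earlier results of these data known. Values were tested with limma 3.58.1 in R 4.3.3 (lmFit, eBayes with an intensity trend, two-sided) on log2(FPKM + 0.5), for genes at 1 FPKM or more in at least 3 libraries, with Benjamini-Hochberg adjustment over all 12121. This scale understates changes of low genes. The fit was checked on simulated reads without GC or length trends, effects shared by a replicate number or an outlying library. That check does not cover these features of the data. SE is the moderated SE. Besides the 8 genes, those named are Gas2l3, the 3 genes of smallest p in each list, annotated neighbours within 5000 bases (1 of which is not reported here) and the 5 genes of most similar profile; snoRNAs within the hosts, and any gene named for a count, were added after their values were seen. Trends were removed per library by loess (span 0.3) on GC content of GENCODE M21 transcripts (96.6% of tested genes) and on transcript length as implied by the ratio of reads to FPKM. Promoters are from RefSeq.

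Deviations from the group means correlated at 0.472, 0.443 and 0.186 between libraries of the same number 1, 2 and 3, and at 0.287, 0.388 and 0.114 with trends removed. Each is above 0.1, so the numbers were taken as pairs; the labels number the samples without saying what a number shares, so this rests on the data. As alternatives, the pseudocount was 0.1 or 1, the filter was dropped or set to a mean of 5 FPKM, and further fits used a common total, quantile normalization, trends removed, the replicate block, no intensity trend, library weights, voom on reads, an adjusted p under 0.1 and leaving out each library. PCR copies cannot be told from molecules, so intervals cover counting error only.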

Additional observations from a re-analysis of the deposited data

How the results depend on the processing

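Library weights ran between 0.160 for wildtype library 3 and 5.26 for Gas2l3 -/- library 3. They were estimated gene by gene after the planned method did not converge, a choice made after seeing the data. With them limma called 1 gene higher (Mir6981) and 1 lower (Ppp1r1b), named for this count after their values were seen, against 0 in the other settings run. The median log2 difference of the 8 genes was then −0.38 in place of 0.31, and that of the protein-coding hosts −0.25 in place of 0.16. With 1 library left out, 0 genes were called in each case. The median of the 8 genes ran between −0.064 without wildtype library 3 and 0.72 without wildtype library 2. Snora44 kept its direction in all 18 alternatives, between 1.96 without wildtype library 3 and 2.52 without Gas2l3 -/- library 1. Snhg3 and Snhg8 also kept theirs in all 18, Snhg5 in 17, Gas5 and Snhg1 in 16, Snhg12 in 15 and Snhg6 in 11. These counts are not of separate checks. Changing the filter, adding the replicate block or dropping the intensity trend leaves each of these log2 differences as it was. Leaving out 1 library could not turn Snora44, since its groups did not overlap. Gas5, Snhg1 and Snhg5 turned with library weights (−0.23, −0.52 and −0.012).

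Rescaling to a common total moved the median of all genes to 0.15. Medians under it were 0.48 for the 8 genes, 0.34 for protein-coding hosts, 0.033 for snoRNP genes, −0.0058 for decay factors and −0.47 for mitosis genes. With GC and length trends removed, with or without the replicate block, they were −0.23 for other noncoding hosts, −0.22 for decay factors and −0.78 for mitosis genes. These medians cover only genes with a GC value, which leaves out Snhg4 and Snhg7 among the other noncoding hosts. Quantile normalization gave −0.15 for decay factors. Leaving out 1 library gave −0.13 to 0.31 for protein-coding hosts, −0.23 to −0.15 for decay factors and −0.75 to −0.45 for mitosis genes. The cause of these shifts was not tested. With the replicate block, limma called 0 genes higher and 0 lower, with 729 at an unadjusted p under 0.05, against 394 without it and 1467 without wildtype library 1, the block left every log2 difference of the 8 genes as it was, and it changed no call. Depth limits Snora44 most, at 1 to 13 reads per library.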
